A study of Arabidopsis thaliana with 12 samples.

Results

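The clade A protein phosphatases 2C (PP2Cs) of Arabidopsis are the co-receptors and brakes of abscisic acid (ABA) signalling. The clade has 9 genes: ABI1 (AT4G26080), ABI2 (AT5G57050), HAB1 (AT1G72770), HAB2 (AT1G17550), AHG1 (AT5G51760), AHG3 (AT3G11410, also named PP2CA), HAI1 (AT5G59220), HAI2 (AT1G07430) and HAI3 (AT2G29380). They were taken by locus identifier from the 32627 loci of the array, and all 9 had a value on each of the 12 arrays. Without ABA, these phosphatases hold SnRK2 protein kinases inactive by dephosphorylating them. ABA bound to a receptor of the PYR/PYL/RCAR family blocks the phosphatase, the SnRK2 kinase becomes active, and it phosphorylates transcription factors of the ABF/ABI5 group and the anion channel SLAC1 of guard cells. In leaves, transcripts of most clade A genes accumulate after ABA or drought, which gives the pathway a negative feedback, and ABA signalling is known to counteract salicylic acid (SA) defences against bacteria.

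Every plant carried a DEX-inducible MKK4DD transgene, which encodes a constitutively active form of MKK4, a MAP kinase kinase upstream of MPK3 and MPK6. The 4 groups, with n = 3 arrays each from 3 independent experiments, were sid2 DEX, sid2 mock, Col DEX and Col mock. Here sid2 is a mutant in SID2, which encodes an enzyme of SA synthesis, and Col is the wild type. Leaves of plants aged 4 weeks were infiltrated with 2 µM dexamethasone (DEX) or, as mock, 0.1% ethanol, and were collected after 24 h. Plants without the transgene were not analysed here, so that an effect of DEX itself and an effect of the kinase cannot be told apart. In RNA of whole leaves, fewer cells of a type and less RNA per cell cannot be told apart either.

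Levels are log2 values of normalised array intensities, on which the lower quartile of each array lay between 4.15 and 4.20 and the median between 7.99 and 8.18. They are compared between groups and never between genes, whose probes differ. MKK4 rose by 2.03 in sid2 and by 1.92 in Col (log2). SID2 had levels of 6.002 to 6.259 in the 6 sid2 arrays. It had 12.48 and 12.26 in the arrays labelled Col DEX replicates 1 and 3, and only 6.08 in the one labelled Col DEX replicate 2, against 9.72 to 10.36 in Col mock. By this gene, the array labelled Col DEX 2 (replicate 2) goes against its label, and the effects of the 9 genes in Col are given with it and with it left out. All 5 markers of green leaf tissue, such as RBCS1A and CAB1, were above the lower quartile in each group. Their summed intensity was 18296 to 29120 in sid2 DEX against 79154 to 83972 in sid2 mock, and 14502 to 24943 in Col DEX against 77167 to 92339 in Col mock. Whether that fall has a part in the results on the phosphatases was not tested.

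Calls came from a limma model of all loci and needed both an adjusted p under 0.01 and a change of more than 2-fold, the limits that the methods give for infected plants. For the present arrays the study also used a 4-fold limit, under which AHG1 keeps its call in both backgrounds and HAI1 in Col, and ABI2 and AHG3 lose theirs. The clade did not respond as a block to DEX. ABI2 and AHG1 were called higher in both backgrounds, HAI1 higher in Col alone and AHG3 lower in sid2 alone. HAI1 in sid2 (2.26, adjusted p = 0.0339) and AHG3 in Col (-0.71, adjusted p = 1.39e-04) moved the same way without a call. ABI1, HAB1, HAB2, HAI2 and HAI3 were called in neither background. In sid2, 2 of 9 members were called higher, where 13% of all loci were, and 1 of 9 was called lower, where 14.8% of all loci were. In Col, 3 of 9 were called higher (13.8% of all loci) and 0 of 9 lower (15% of all loci). Without the one array labelled Col DEX 2, 2 of 9 were called higher in Col. The call lost was that of HAI1. Each count differs from what these shares give for 9 genes by less than 2 genes, and no test of the clade as a list was run. The median DEX effect of the 9 genes was 0.15 in sid2 and 0.23 in Col, beside 0.04 in both backgrounds over all loci. Values of DEX and mock arrays did not overlap for 5 of 9 members in sid2, against 60.6% of all loci, and for 6 of 9 in Col, against 57.7% of all loci.

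**Figure D1:**
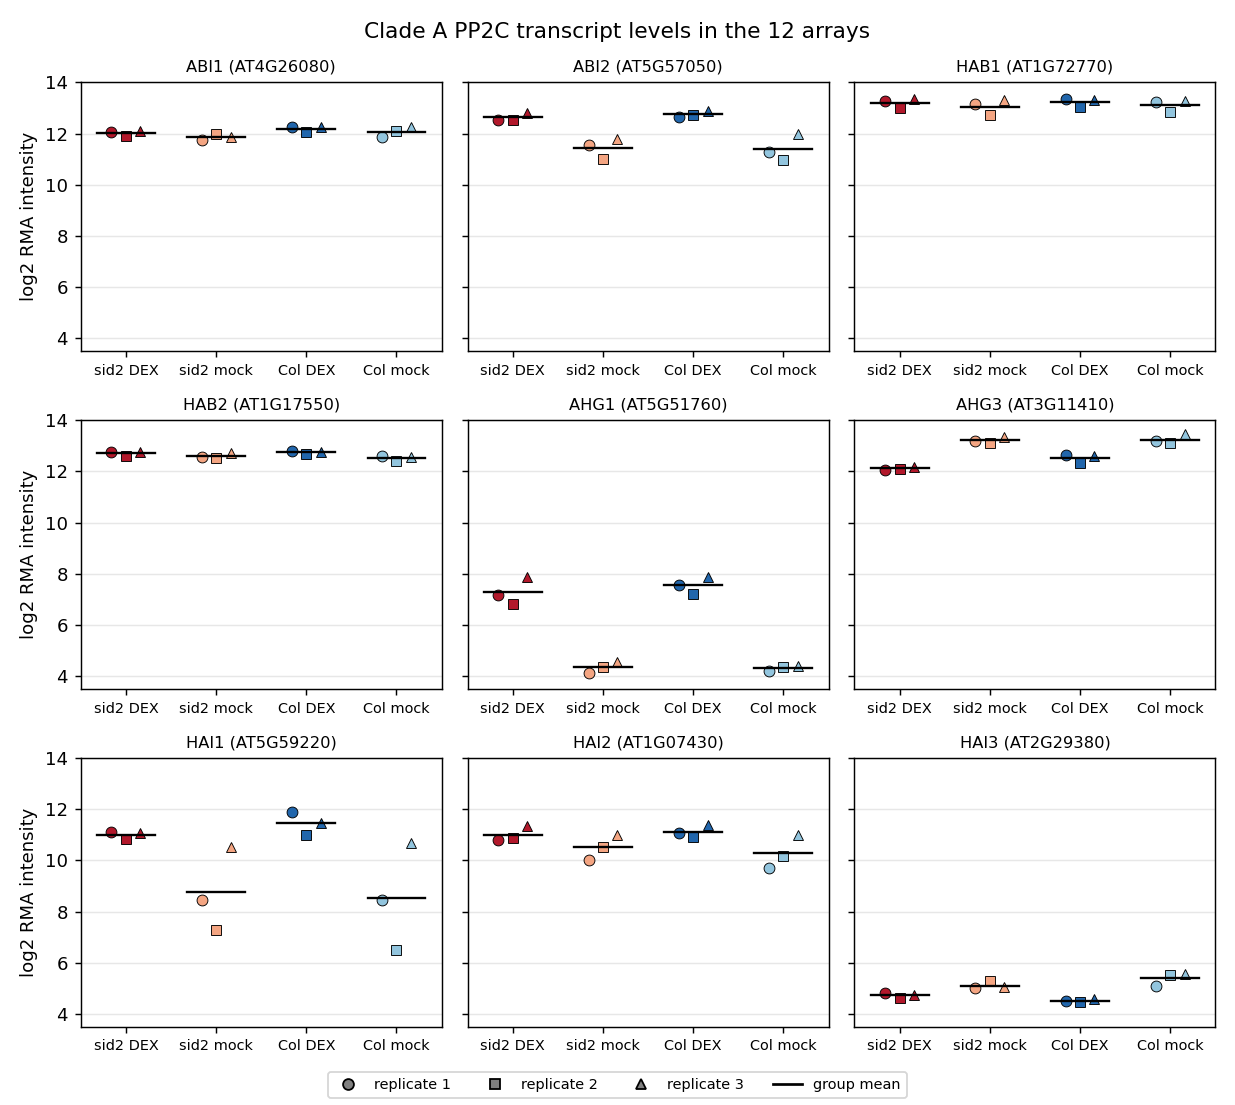
Log2 intensity of the 9 clade A PP2C genes (vertical axis) in the 4 groups (horizontal axis), with 1 symbol per array, shaped by replicate number, and a bar at the group mean. AHG1 and ABI2 lie higher in all DEX arrays than in all mock arrays, AHG3 lies lower, and the mock arrays of HAI1 spread between 6.48 and 10.66.

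ABI1, ABI2, HAB1 and HAB2 form the branch of the clade that includes the first ABA-insensitive mutants, abi1 and abi2. ABI1, a phosphatase that dephosphorylates the SnRK2 kinase OST1, averaged 12.02 ± 0.10 in sid2 DEX and 11.86 ± 0.13 in sid2 mock, and 12.19 ± 0.11 in Col DEX and 12.06 ± 0.20 in Col mock (SD, n = 3 each). The groups overlapped in both backgrounds. The DEX effect on ABI1 was 0.15 ± 0.11 in sid2 (SE, adjusted p = 0.285) and 0.13 ± 0.11 in Col (adjusted p = 0.369), or 0.20 in Col (adjusted p = 0.233) with the array labelled Col DEX 2 left out. The 95% interval in sid2 was -0.10 to 0.41.

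ABI2, its closest paralogue, was the member of this branch that did change. The arrays had 12.54, 12.53 and 12.82 in sid2 DEX against 11.55, 10.99 and 11.80 in sid2 mock, and 12.64, 12.72 and 12.89 in Col DEX against 11.26, 10.96 and 11.97 in Col mock. Every DEX array was above every mock array, and the mock arrays were spread more widely (SD 0.42 in sid2 and 0.52 in Col) than the DEX arrays (SD 0.16 in sid2 and 0.13 in Col). ABI2 rose 2.27-fold in sid2 (1.19 ± 0.21 on the log2 scale, adjusted p = 5.04e-04) and 2.56-fold in Col (1.35 ± 0.21, adjusted p = 1.82e-04), in 3 of 3 same-numbered pairs in each. Without the one array labelled Col DEX 2, the effect in Col was 1.29 (adjusted p = 0.00117). In sid2 the call depended on sid2 mock replicate 2, without which the effect was 0.996 and just under the 2-fold limit (adjusted p = 0.00285). The order of the means was Col DEX, sid2 DEX, sid2 mock and Col mock, and the backgrounds differed within each treatment by less than 1 SD.

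HAB1, whose protein also binds the chromatin-remodelling subunit SWI3B, averaged 13.20 ± 0.19 in sid2 DEX and 13.05 ± 0.30 in sid2 mock, and 13.24 ± 0.19 in Col DEX and 13.11 ± 0.24 in Col mock (SD, n = 3 each). Its DEX effect was 0.15 ± 0.14 in sid2 (adjusted p = 0.375) and 0.12 ± 0.14 in Col (adjusted p = 0.494), or 0.16 with the array labelled Col DEX 2 left out (adjusted p = 0.435). All 4 groups overlapped. HAB2 averaged 12.70 ± 0.08 in sid2 DEX and 12.60 ± 0.10 in sid2 mock, and 12.74 ± 0.05 in Col DEX and 12.51 ± 0.11 in Col mock. The effect on HAB2 was 0.10 ± 0.08 in sid2 (adjusted p = 0.343) and 0.23 ± 0.08 in Col (adjusted p = 0.0394), where the DEX arrays, at 12.69 to 12.79, did not overlap the mock arrays, at 12.39 to 12.59. It was 0.23 with the array labelled Col DEX 2 left out (adjusted p = 0.0783). Over the 12 arrays, the profiles of HAB1 and HAB2, each centred on its own mean, were the most alike of all pairs of members, with a root mean square difference of 0.146, followed by ABI1 and HAB2 at 0.171.

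AHG1 and AHG3 are the members best known from seeds, where loss of either makes germination hypersensitive to ABA, and both bind the dormancy protein DOG1. AHG1 differs from the other members in that most ABA receptors inhibit its protein poorly. AHG1 had levels of 7.18, 6.83 and 7.88 in sid2 DEX against 4.11, 4.35 and 4.56 in sid2 mock, and of 7.56, 7.21 and 7.88 in Col DEX against 4.19, 4.36 and 4.39 in Col mock. The mock values lay near the lower quartile of the arrays, and the lowest DEX value was more than 2 log2 units above the highest mock value. The rise was 7.75-fold in sid2 (2.95 ± 0.21, adjusted p = 3.98e-07) and 9.45-fold in Col (3.24 ± 0.21, adjusted p = 1.80e-07). Without the one array labelled Col DEX 2 it was 3.38 in Col (adjusted p = 1.03e-06). Because the mock signal was dim, the size depends on the floor: with a pseudocount of 16 added to the intensities, it was 2.26 in sid2 and 2.51 in Col, still called, against 2.19 in sid2 and 2.82 in Col for HAI1. Of 5 seed markers, 0 were called higher and 1 was called lower in each background, FUS3, a transcription factor of seed maturation, by 2.07 in sid2 and by 1.87 in Col. The summed intensity of the seed markers was 82.5 to 86.6 in sid2 DEX against 126.5 to 133.2 in sid2 mock, and 80.3 to 91.8 in Col DEX against 116.2 to 158.5 in Col mock. This sum does not show a fall of the whole list. SESA1, CRU3, OLEO1 and ABI3 were called in neither background. Their effects lay between -0.12 (ABI3) and 0.21 (OLEO1) in sid2, and between -0.44 (SESA1) and 0.17 (CRU3) in Col. Most seed markers were dim, with means above the lower quartile for 1 of 5 in sid2 DEX, 2 in sid2 mock, 2 in Col DEX and 4 in Col mock. The statement covers these markers alone. In another list below, the late embryogenesis abundant gene EM6 was called higher in both backgrounds and EM1 in neither. The means of AHG1 in the DEX groups differed by 0.26, less than the SD of either, and those in the mock groups by 0.03.

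AHG3 moved the other way. Its arrays had 12.06, 12.10 and 12.19 in sid2 DEX against 13.20, 13.12 and 13.33 in sid2 mock, and 12.65, 12.34 and 12.60 in Col DEX against 13.17, 13.09 and 13.46 in Col mock. All DEX arrays were below all mock arrays, and the sid2 DEX arrays were below the Col DEX arrays without overlap. AHG3 fell to 0.468 of the mock level in sid2 (-1.10 ± 0.11, adjusted p = 4.61e-06), and this value lies just past the 2-fold limit. In Col it was at 0.611 of the mock level (-0.71 ± 0.11, adjusted p = 1.39e-04), under the limit for a call, and at -0.64 without the one array labelled Col DEX 2 (adjusted p = 9.18e-04). The order of the means was Col mock, sid2 mock, Col DEX and sid2 DEX, of which the mock groups differed by 0.02, well within their SDs of 0.19 in Col and 0.11 in sid2.

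HAI1, HAI2 and HAI3, the highly ABA-induced members, are known from drought and low water potential, and HAI1 protein can also dephosphorylate MPK3 and MPK6. In mock arrays, HAI1 is the member whose replicates spread most. It had levels of 11.12, 10.85 and 11.05 in sid2 DEX against 8.45, 7.29 and 10.52 in sid2 mock, and of 11.89, 10.99 and 11.45 in Col DEX against 8.43, 6.48 and 10.66 in Col mock. The DEX arrays lay close together and above all mock arrays, while the mock arrays had an SD of 1.64 in sid2 and 2.09 in Col, against 0.14 in sid2 DEX and 0.45 in Col DEX. HAI1 rose 7.56-fold in Col (2.92 ± 0.81, adjusted p = 0.00917). In sid2 the effect was 4.78-fold (2.26 ± 0.81) and was not called (adjusted p = 0.0339). Same-numbered pairs differed by 2.67, 3.56 and 0.54 in sid2 and by 3.46, 4.51 and 0.79 in Col, all upwards, so that the size ranged widely between experiments. The call in Col was lost without the one array labelled Col DEX 2 (2.86, adjusted p = 0.0282) and in 8 of the 12 fits that left out 1 array.

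HAI2 had levels of 10.78, 10.88 and 11.34 in sid2 DEX against 10.03, 10.52 and 10.99 in sid2 mock, and of 11.06, 10.93 and 11.36 in Col DEX against 9.68, 10.18 and 10.97 in Col mock. The groups overlapped in both backgrounds, although DEX was higher in 3 of 3 same-numbered pairs in each. Its effect was 0.49 ± 0.25 in sid2 (adjusted p = 0.123) and 0.84 ± 0.25 in Col (adjusted p = 0.0140), and 0.91 in Col without the one array labelled Col DEX 2 (adjusted p = 0.0220). Without Col mock replicate 3 it was 1.10 in Col and was called (adjusted p = 0.00253). In all, HAI2 was called in Col in 2 of the 23 alternatives run.

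HAI3 was dim on this array. Its values were 4.83, 4.60 and 4.75 in sid2 DEX against 5.01, 5.28 and 5.03 in sid2 mock, and 4.50, 4.45 and 4.57 in Col DEX against 5.10, 5.51 and 5.56 in Col mock. The DEX arrays were below the mock arrays in both backgrounds, without overlap. The difference was -0.38 ± 0.13 in sid2 (adjusted p = 0.0251) and -0.88 ± 0.13 in Col (adjusted p = 1.10e-04), under the 2-fold limit, and -0.84 in Col without the one array labelled Col DEX 2 (adjusted p = 8.31e-04). Without Col mock replicate 1 it was -1.03 in Col and was called (adjusted p = 3.98e-05). The means of HAI3 ran, high to low, Col mock, sid2 mock, sid2 DEX and Col DEX, whereas those of HAI1 and HAI2 ran Col DEX, sid2 DEX, sid2 mock and Col mock. For HAI1 and HAI2, the backgrounds within a treatment differed by less than the larger SD of the pair.

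**Figure D2:**
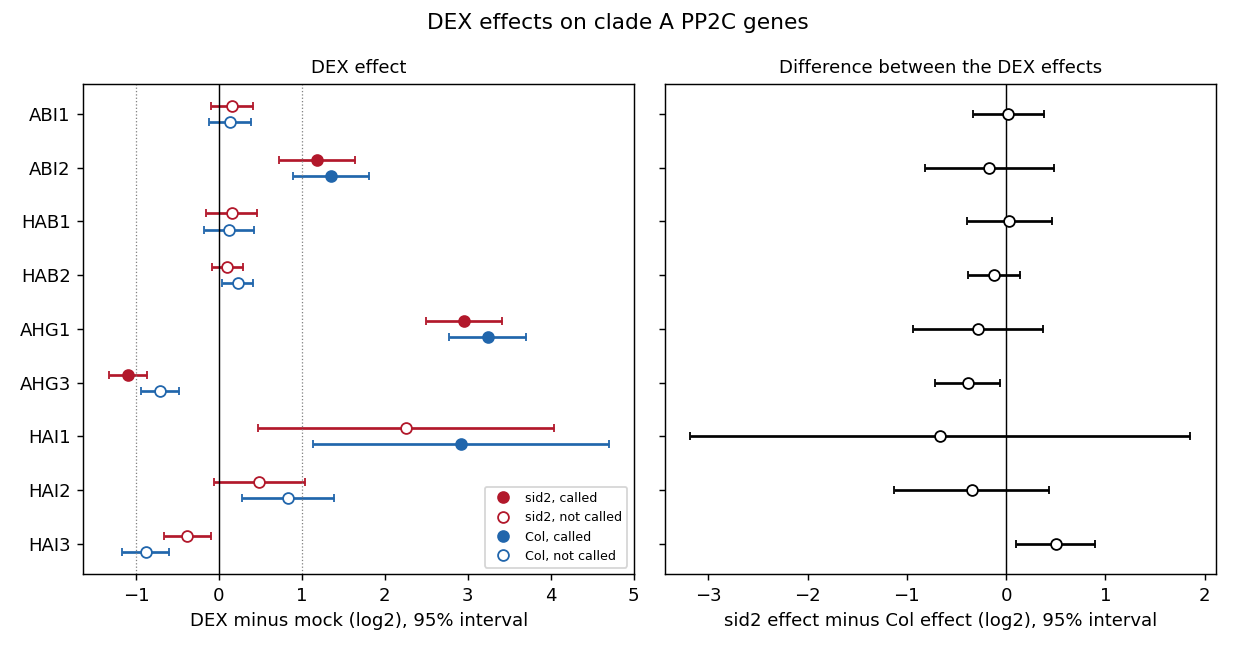
Left, DEX minus mock (log2, with 95% intervals) for each clade A gene in sid2 and Col, filled where called, with dotted lines at the 2-fold limit. Right, the sid2 effect minus the Col effect with its 95% interval, which includes 0 for all members but AHG3 (-0.39) and HAI3 (0.50).

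Whether the response of these genes needed SID2 was tested as the difference between the DEX effects, sid2 minus Col. None of the 9 members was called (0 of 32627 loci, 0%), and 2 had an unadjusted p under 0.05 in limma, as did 734 of all loci. The SA-induced gene PR1 had the smallest p of all loci and a difference of 3.86 ± 0.50, and was not called either (adjusted p = 0.226). The absence of a call thus does not show that a response did not need SID2. AHG3 had a difference of -0.39 ± 0.15 (95% interval -0.72 to -0.06, adjusted p = 1), and it was negative in 3 of 3 same-numbered pairs. For HAI3 it was 0.50 ± 0.18 (0.10 to 0.90, adjusted p = 1), positive in 3 of 3 pairs. With the array labelled Col DEX 2 left out, the difference was -0.46 for AHG3 and 0.46 for HAI3, and again 0 members were called. It was then -0.04 for ABI1, -0.11 for ABI2, -0.01 for HAB1, -0.13 for HAB2, -0.42 for AHG1, -0.60 for HAI1 and -0.42 for HAI2. The intervals from all 12 arrays bound how far the backgrounds could differ only if the label of Col DEX 2 is right. Intervals without that array are not given here. Those from all 12 arrays ran from -0.82 to 0.48 for ABI2, from -0.94 to 0.37 for AHG1 and from -1.13 to 0.43 for HAI2. A difference of more than 2-fold in favour of sid2 lay outside these intervals. For these genes, a weaker rise in sid2 is the negative side. There the interval of HAI2 went past 2-fold and past its DEX effect in Col, 0.84. Those of ABI2 and AHG1 stayed within 2-fold and fell short of their rises in Col, 1.35 and 3.24. The intervals were -0.33 to 0.38 for ABI1, -0.40 to 0.46 for HAB1 and -0.39 to 0.14 for HAB2. The DEX effects of these genes in Col were only 0.13, 0.12 and 0.23, and none was called. A loss of the whole effect in sid2 lay inside each interval, so a need for SID2 cannot be read from them. For HAI1 the interval, -3.18 to 1.86, was too wide to bound anything useful.

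Within a treatment, the difference sid2 minus Col in these genes ran from -0.44 to 0.22 (log2) in DEX arrays. It ran from -0.28 to 0.23 in mock arrays. In DEX arrays, 0 of 9 members were called (0% of all loci), and 1 had an unadjusted p under 0.05, as did 1881 of all loci. This was AHG3, which was 0.41 ± 0.11 (log2) lower in sid2 DEX than in Col DEX (adjusted p = 0.783), in 3 of 3 same-numbered pairs. Without the one array labelled Col DEX 2 the difference was -0.49 (adjusted p = 0.240). It shares the DEX arrays with the difference between the DEX effects and is not a second piece of evidence. In mock arrays, 0 of 9 members were called (0.00306% of all loci, the 1 locus being PR1, an SA-induced gene), and 1 had an unadjusted p under 0.05, as did 2267 of all loci. This was HAI3, at -0.28 (adjusted p = 0.717). SID2 itself was not called either, at -4.17 in DEX arrays (adjusted p = 0.783) and -3.97 in mock arrays (adjusted p = 0.615). With all arrays in the fit, the absence of a call thus does not show that levels were similar. With the array labelled Col DEX 2 left out, SID2 was called in both (adjusted p = 3.88e-07 in DEX and 8.88e-06 in mock). In that fit, too, 0 of 9 members were called in DEX and in mock arrays.

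The mock arrays of several members varied together between experiments, a pattern chosen after the values were seen. In both backgrounds, mock levels of ABI2, HAB1, AHG3 and HAI1 were lowest in replicate 2 and highest in replicate 3, that is for 4 of 9 members (44.4%), where 9.14% of all loci showed this order. Mock levels were highest in replicate 3 of both backgrounds for 6 of 9 members (66.7%), against 20.8% of all loci. The range of the mock arrays was widest for HAI1, at 3.23 in sid2 and 4.19 in Col, against ranges of the DEX arrays of 0.27 in sid2 and 0.90 in Col. Of 16 ABA-responsive genes, 4 had the same order of mock levels (RAB18, MAPKKK18, HB-7 and HB-12), and 8 were highest in replicate 3. Another of them, RD26, with a mock range of 2.36 in sid2, was lowest in replicate 1 and highest in replicate 2 of both backgrounds. The order held for 4 of 14 ABA receptors, 1 of 8 ABF and ABI5 factors, 0 of 10 SnRK2 kinases and 0 of 10 listed partners of the phosphatases. The replicate numbers mark independent experiments, and what differed between these experiments was not tested.

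**Figure D3:**
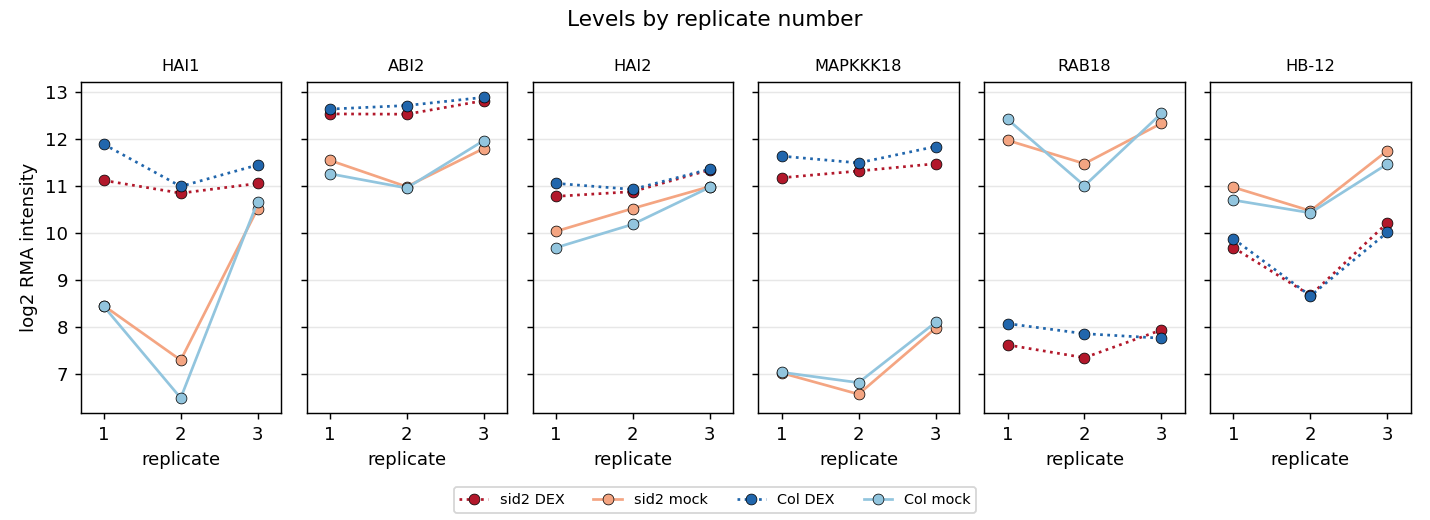
Log2 intensity (vertical axis) by replicate number (horizontal axis) of HAI1, ABI2 and HAI2 and of the ABA-responsive genes MAPKKK18, RAB18 and HB-12, chosen after their values were seen. Lines join the arrays of 1 group and mark no order in time, and mock levels (solid) of all but HAI2 are lowest in replicate 2 and highest in replicate 3. Most ABA-responsive genes, among them RD26, are not shown and did not have this order.

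Genes around the phosphatases were called in both directions. The counts that follow stand beside the shares of all loci given above, 13% higher and 14.8% lower in sid2, and 13.8% higher and 15% lower in Col, and were not tested against them. Of the 14 PYR/PYL/RCAR receptors, 2 were called higher and 4 lower in each background. PYL6 rose by 4.48 in sid2 and by 4.14 in Col, and PYL5 by 1.80 in sid2 and by 1.57 in Col, where it was not called without the one array labelled Col DEX 2 (adjusted p = 0.0204). PYL9 fell by 1.69 in sid2 and by 1.62 in Col, and PYL2 fell by 1.43 in sid2 and by 1.60 in Col. The other receptors called lower in both backgrounds were PYR1 and PYL8, chosen by name once values were known. Of the 10 SnRK2 kinases, a family whose ABA-activated members are direct targets of the clade, 1 was called higher and 2 lower in each background. SNRK2.5, which ABA does not activate, rose by 2.71 in sid2 and by 3.02 in Col, while SNRK2.3, a main ABA-activated kinase, fell by 1.65 in sid2 and by 1.88 in Col, and SNRK2.8 fell by 1.45 in sid2 and by 1.38 in Col. OST1, the guard cell kinase held in check by ABI1 and HAB1, was not called, with 0.40 ± 0.12 in sid2 and 0.62 ± 0.12 in Col.

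Of the 8 ABF and ABI5 transcription factors, 1 was called higher and 1 lower in sid2, and 2 higher and 1 lower in Col. ABI5 rose by 2.11 in sid2 and by 2.34 in Col, ABF2 fell by 1.42 in sid2 and by 1.27 in Col, and EEL rose in Col by 1.08 and had 0.83 in sid2. Of the 16 ABA-responsive genes, 2 were called higher and 8 lower in sid2, and 2 higher and 7 lower in Col, or 4 lower without the one array labelled Col DEX 2. MAPKKK18, which encodes an ABA-activated kinase, rose by 4.15 in sid2 and by 4.35 in Col, and EM6, a late embryogenesis abundant protein, by 3.25 in sid2 and by 3.60 in Col. The dehydrin gene RAB18 fell by 4.30 in sid2 and by 4.10 in Col, and the proline synthesis gene P5CS1 fell by 3.01 in sid2 and fell by 3.05 in Col. The DEX arrays in which ABI2, AHG1 and HAI1 were higher thus had lower RAB18, P5CS1 and AHG3, and higher MAPKKK18 and EM6.

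Of 10 loci listed as known partners of the phosphatases, 1 was called higher and 4 lower in sid2, and 0 higher and 4 lower in Col. Over all loci, 13% were called higher and 14.8% lower in sid2, and 13.8% and 15% in Col. The locus called higher was AT1G14200, at 1.12 in sid2 and 0.80 in Col, which is named here after its values were seen. Whether AT1G14200 encodes a partner of the phosphatases was not established, so its call is not read as one of a partner. GHR1, a receptor-like protein needed for activation of SLAC1, fell by 4.38 in sid2 and by 4.41 in Col, SLAC1 by 3.14 in sid2 and by 3.06 in Col, and DOG1 by 2.81 in sid2 and by 2.54 in Col. HB6, a transcription factor bound by ABI1, fell by 1.03 in sid2 and by 1.07 in Col. Of 5 guard cell markers, 0 were called higher, and 3 were called lower in sid2 (ALMT12, MYB60 and KAT1) and 2 in Col (ALMT12 and MYB60, joined by KAT1 without the one array labelled Col DEX 2). FAMA and HT1 were called in neither background, with FAMA at 0.29 in sid2 and 0.14 in Col, and HT1 at -0.57 in sid2 and -0.56 in Col. All 5 guard cell markers were above the lower quartile in each group. Their summed intensity was 3397 to 3799 in sid2 DEX against 6900 to 9150 in sid2 mock, and 2670 to 3860 in Col DEX against 5088 to 8815 in Col mock. The part of guard cell number in the values of SLAC1 and GHR1 was not tested.

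**Figure D4:**
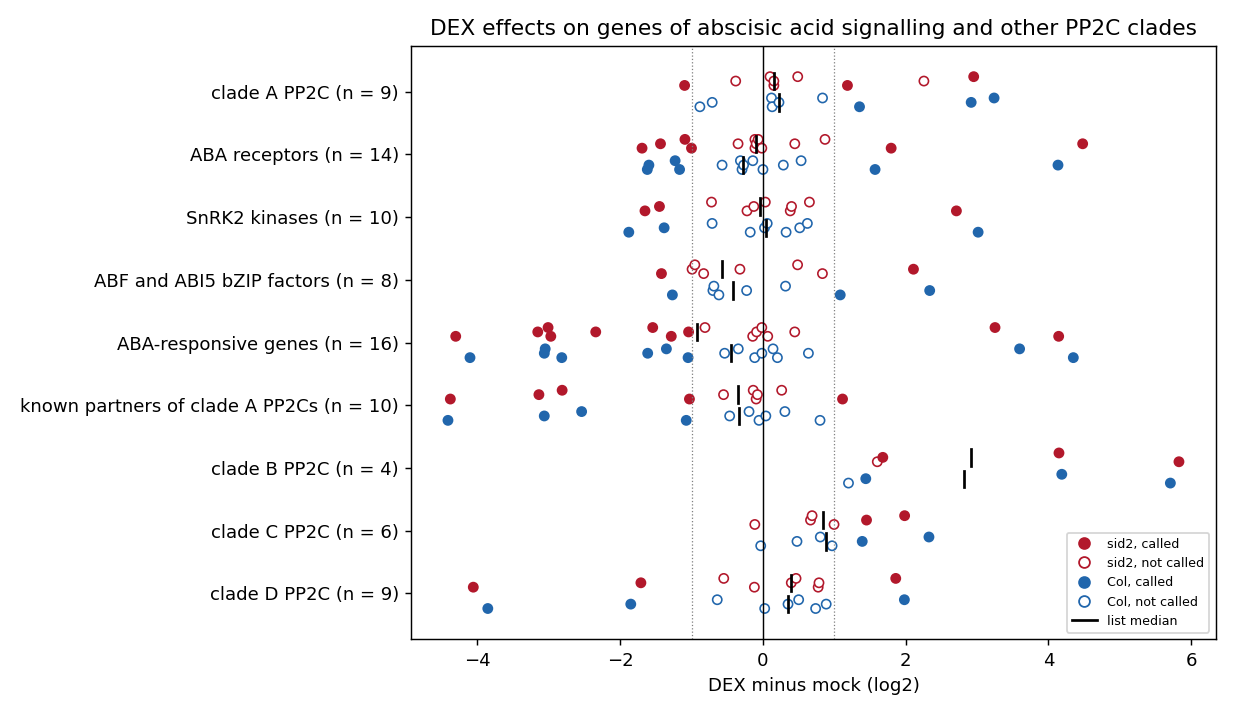
DEX minus mock (log2, horizontal axis) of each gene in the clade A list, 5 lists of ABA signalling and 3 other PP2C clades (vertical axis), in sid2 and Col, filled where called, with bars at list medians and dotted lines at the 2-fold limit. Clade A lies around a median of 0.15 in sid2 and 0.23 in Col, and clade B lies wholly above 1.

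The other PP2C clades, which do not bind ABA receptors, gave different counts. In clade B, whose members AP2C1 and PP2C5 act on MAP kinases, 3 of 4 genes were called higher and 0 lower in each background, with a list median of 2.91 in sid2 and 2.82 in Col. AT1G07160 rose by 5.83 in sid2 and by 5.71 in Col, PP2C5 by 4.15 in sid2 and by 4.19 in Col, and AT1G67820 by 1.68 in sid2 and by 1.44 in Col. In clade C, 2 of 6 were called higher (PLL2 and PLL5) and 0 lower in each background. In clade D, known for acting on plasma membrane proton pumps, 1 of 9 was called higher (APD5) and 2 lower (APD7 and APD9). With the array labelled Col DEX 2 left out, PLL4 in clade C and APD8 in clade D were also called higher in Col. No test between clades was run.

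Among called members, AHG1 had the largest rise and AHG3 the largest fall averaged over sid2 and Col, although HAI3, which was not called, had a more negative effect than AHG3 in Col alone (-0.88 for HAI3 and -0.71 for AHG3). Loci with array profiles most like those of AHG1 and AHG3 were ranked over the 12 arrays by the root mean square difference of centred log2 levels. For AHG1 they were AT1G10220 (0.135), AT4G19980 (0.167) and AT1G09550 (0.202), beside a median of 1.57 over all loci. For AHG3 they were AT5G01650 (0.106), AT3G44100 (0.120) and AT4G12990 (0.123), beside a median of 0.596. The reference table gives none of these loci a name that was used here.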

How the data were processed

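RNA of 12 leaf samples was hybridised to 1-colour NimbleGen arrays designed on TAIR9 gene models. The deposited intensity values are linear. According to the methods, the authors summarised probe signals with the robust multi-array average (RMA), which makes array distributions nearly equal, and the higher of several transcript values represents a gene. The software version is not given in the sources used here. Cross-hybridisation between paralogues was not examined, since probes, background, slides and scans were not analysed here. The number of arrays limits the precision.

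Intensities were converted to log2 and fitted with limma 3.58.1 (lmFit, eBayes) in R 4.3.3, with 4 groups and the replicate as a random block (duplicateCorrelation, statmod 1.5.0, consensus correlation 0.208), as in the methods. The methods describe 3 independent experiments, and same-numbered arrays deviated together from their group means, so these numbers were treated as pairing arrays. Across loci, r was 0.387 to 0.733 between sid2 and Col within a treatment, but only 0.100 to 0.303 between DEX and mock within a background. All p-values come from this fit, two-sided, with Benjamini and Hochberg's adjustment over 32627 loci in place of the study's q-values. No filter on low values was applied. The alternatives were other blocks, a pseudocount of 16, a filter on dim loci, other scalings, array weights, other limits and left-out arrays.

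The members and gene lists were chosen with earlier results of these data known. All 9 members were named, and from each other list up to 4 called genes with the largest mean DEX effect. Some genes were named outside this rule, such as OST1, which was called in neither background, and PYR1, PYL8 and AT1G14200. PYL9 is RCAR1, SLAC1 is OZS1 and EM6 is GEA6 in the RefSeq gene table (TAIR10.1), which was used for names alone.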

Additional observations from a re-analysis of the deposited data

How the results depend on the processing

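The DEX effects of all 9 members kept their direction in both backgrounds under the 23 alternatives run, and AHG1 kept its call in the 22 that tested it, with its smallest effect, 2.26 in sid2 and 2.51 in Col, under a pseudocount of 16. In sid2, the number of members called higher was 1 instead of 2 with a filter on a mean log2 level of at least 6, which removes AHG1, and 1 with a 4-fold limit. The number called lower was 0 instead of 1 with a 4-fold limit and 0 with arrays shifted to a common median, where AHG3 was at -0.99. Leaving out 1 array each gave 1 to 2 members called higher and 1 lower in sid2, and 2 to 4 higher and 0 to 1 lower in Col. The values that differed in sid2, and the extremes in Col, were 1 higher in sid2 without sid2 mock replicate 2 (ABI2 lost), 1 lower in Col without Col mock replicate 1 (HAI3) and 4 higher in Col without Col mock replicate 3 (HAI2). The call of HAI1 in Col was the least stable, with an adjusted p of 0.0249 without a replicate block and 0.00573 with the replicate block as a fixed term, 0.0113 with a pseudocount of 16, 0.0103 after quantile normalization and 0.0244 from the 6 Col arrays alone. It was 0.0540 without the replicate 2 arrays of all groups (effect 2.12) and 0.0456 without Col mock replicate 2 (effect 2.04). Calls were also lost without sid2 DEX replicates 1 or 2, sid2 mock replicate 1, Col DEX replicates 1, 2 or 3, or Col mock replicate 1. In sid2, HAI1 was called with array weights (adjusted p = 0.00525) and at an adjusted p under 0.05. The block changed no other call except that HAI2 in Col had an adjusted p of 0.00230 with the fixed term, still under 2-fold. Differences between the DEX effects that were close to 0 changed sign. ABI1 was at -0.013 and HAB1 at -0.0369 with array weights, and leaving out 1 array each gave -0.0601 to 0.128 for ABI1, -0.0868 to 0.128 for HAB1, -0.405 to 0.00994 for ABI2 and -1.599 to 0.219 for HAI1. The causes were not tested. Dim signal limits what can be read from HAI3 and from AHG1 in mock arrays.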
